A study of Caenorhabditis elegans with 2 samples.

Results

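The 6 Hox genes of Caenorhabditis elegans, ceh-13, lin-39, mab-5, egl-5, php-3 and nob-1, were examined in a ChIP-seq profile of the transcription factor LIM-6. They were taken by name, as 6 of 19973 protein-coding genes on the nuclear chromosomes. For each gene, every deposited region was taken that overlapped a window from 5 kb upstream of the gene to 1 kb past its end, introns included. The pooled list held 18 such regions of 25887, the replicate 1 list 17 of 21953, the replicate 2 list 15 of 27731, and the list of reproducible peaks 0 of 570. Over the 59861 bp that the windows cover, the 18 are 0.301 per kb. Chromosome III, where all 6 genes lie, held 0.312 per kb, and all nuclear chromosomes 0.258, so the count is near that background. Chromatin was from whole late embryos, hermaphrodite per the labels, taken 5 hours after egg bleaching. The sample descriptions name an anti-GFP antibody, while the antibody field of the labels reads lim-6, so whether untagged LIM-6 could also have been precipitated cannot be settled here. All embryos were of strain OP388, genotype unc-119(ed3) III; wgIs388, which carries a transgene for LIM-6 with GFP and FLAG at its C-terminus. The 2 libraries are biological replicates of 1 group, so no condition was compared with another and no test between groups exists. Whether the endogenous lim-6 gene is intact in OP388, and how many copies the insertion holds, is not given in the sources used here. Whole embryos were profiled, so binding in a few cells is averaged with all other cells, and RNA was not measured. Control libraries were not analysed here, and read depth is not given in the sources used here.

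Hox genes encode homeodomain transcription factors that give cells their position along the body axis. In C. elegans, ceh-13 is the ortholog of labial and acts in anterior embryonic patterning, lin-39 acts in the mid-body and in vulval precursor cells, and mab-5 acts in the posterior body and in migrating neuroblasts. The genes egl-5, php-3 and nob-1 are of the Abdominal-B type and act in the tail, the last pair in patterning the posterior of the embryo. LIM-6 is itself a homeodomain protein, of the LIM class, known for its roles in a small set of neurons and in the excretory gland and uterus. Homeodomains of both families recognise short AT-rich sites with a TAAT core, which reads ATTA on the other strand. All 6 genes lie on chromosome III in 3 pairs. The genes lin-39 and ceh-13 are transcribed away from each other across 19027 bp, mab-5 and egl-5 likewise across 30919 bp, and php-3 and nob-1 follow each other on the minus strand 236 bp apart.

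No reproducible peak lay in the window of any Hox gene, and the regions found there were all from the relaxed lists, which include background by design. Of all protein-coding gene windows built in the same way, 6.38% held a reproducible peak, so an empty count over 6 windows is near that background. Each of the 6 windows held at least 1 pooled relaxed region, as did 80.7% of all windows. The strongest Hox region, upstream of egl-5, had a pooled signal of 54.8 and rank 1629, against a lowest signal of 80.0 among the reproducible peaks. The reproducible peaks are the 570 pooled regions of highest signal. The empty count and the signals under 80.0 are therefore 1 result and not separate ones. Signal is the enrichment that the authors' peak caller gave each region, in units not stated, and rank 1 is the highest of a list. One of the 18 regions, that same egl-5 region, had a deposited q-value under 0.05 (−log10 q = 1.47), compared with 6.81% of the pooled list. The other 17 had a −log10 q of 0.94 or lower, while every reproducible peak had 2.62, the highest value in the pooled list. Among the 1000 pooled regions of highest signal none lay in a Hox window, beside 10.1% of all windows with one, and among the 2000 highest the egl-5 region was the only one, beside 17.4%.

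The summit sequences of the strongest region at ceh-13, mab-5, egl-5 and the php-3 and nob-1 pair are shown here because they carry the highest signals at the Hox loci. Each is 201 bases of the plus strand centred on the pooled summit, read from the RefSeq sequence of WBcel235, the assembly of the ce11 files. Capitals mark every TAAT and ATTA. The lin-39 region runs into a 3′ UTR and is described without its sequence.
ceh-13, chrIII:7558676-7558876: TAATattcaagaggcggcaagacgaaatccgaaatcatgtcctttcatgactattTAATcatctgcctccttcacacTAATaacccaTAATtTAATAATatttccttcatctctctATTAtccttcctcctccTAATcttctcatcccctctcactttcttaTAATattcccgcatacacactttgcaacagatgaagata
mab-5, chrIII:7784271-7784471: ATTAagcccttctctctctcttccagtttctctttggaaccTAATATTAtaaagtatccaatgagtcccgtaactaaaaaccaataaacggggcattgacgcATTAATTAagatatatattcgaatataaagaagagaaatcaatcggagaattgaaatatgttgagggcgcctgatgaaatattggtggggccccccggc
egl-5, chrIII:7812395-7812595: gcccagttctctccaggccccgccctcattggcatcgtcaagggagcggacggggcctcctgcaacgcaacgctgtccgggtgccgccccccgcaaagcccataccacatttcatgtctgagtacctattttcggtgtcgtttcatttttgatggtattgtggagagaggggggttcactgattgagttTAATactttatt
php-3 and nob-1, chrIII:12082061-12082261: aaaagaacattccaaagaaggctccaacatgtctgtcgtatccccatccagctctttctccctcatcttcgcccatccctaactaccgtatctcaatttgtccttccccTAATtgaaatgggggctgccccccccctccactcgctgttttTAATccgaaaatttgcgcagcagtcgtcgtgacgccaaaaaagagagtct

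The ceh-13 sequence held 9 TAAT or ATTA matches at a GC content of 36.3%, and the mab-5 sequence 6 at 38.8%. The egl-5 sequence, although at the region of highest signal, held 1 match at 54.2% GC, and the php-3 and nob-1 sequence 2 at 49.3%. In the mab-5 sequence overlapping matches form TAATTA, the core bound by LIM homeodomains, and none of the other 3 sequences holds it. A match is a description of letters and not evidence of a bound site.

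The gene ceh-13 lies on the plus strand at chrIII:7555660-7558041. Its strongest region was downstream of the gene, at chrIII:7558564-7558987, in intergenic sequence 3116 bp past the 5′ end, with a pooled signal of 47.3 and rank 2521. The libraries gave it 27.2 (rank 2054) in replicate 1 and 21.7 (rank 5538) in replicate 2. Both libraries thus listed it, and it stood above 90.3% of the pooled list. A second region, at chrIII:7553151-7553574 and 2297 bp upstream, had a signal of 34.1 (rank 7339), with 15.5 and 15.6 in the libraries. Both of those library values were under the medians of their own lists, 16.6 and 15.9. The third, at chrIII:7554618-7555041 and 830 bp upstream, had a signal of 26.4 (rank 14853) and was listed in replicate 1 alone, at 15.2 (rank 14074). Replicate 2 had 1 more region, at chrIII:7558787-7559216, overlapping the strongest one, with a signal of 11.9 (rank 26111). The regions nearest to the ceh-13 promoter were thus weaker than the one past its end.

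At lin-39, on the minus strand at chrIII:7528641-7536632, the pooled list held 1 region in a window of 13992 bp, the longest of the 6. That region, at chrIII:7528942-7529365, had its summit in a coding exon near the end of the gene, 5651 bp downstream of the nearer of 2 annotated 5′ ends. Its pooled signal was 22.2, at rank 22273, and it stood at or above 13.96% of the list. Replicate 1 listed it at 14.01 (rank 17158) and replicate 2 did not. Replicate 2 instead listed a region at chrIII:7537503-7537932, with its summit 1086 bp upstream, at 11.6 (rank 27198). The libraries therefore shared no region at lin-39, and these values stood at or above 21.8% and 1.93% of their own lists.

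The gene mab-5 lies on the minus strand at chrIII:7776835-7783454. Its strongest region, at chrIII:7784159-7784582 and 917 bp upstream of the 5′ end, had a pooled signal of 40.3 and rank 4248. Replicate 1 gave 20.7 (rank 5384) and replicate 2 gave 21.3 (rank 5871), so the libraries were closer here than at any other leading Hox region. A region at chrIII:7783114-7783537 had its summit in a coding exon 128 bp downstream of the 5′ end, with a signal of 29.2 (rank 11417). The libraries gave it 13.4 and 12.1, at ranks 18984 and 25113. A region at chrIII:7775938-7776361, with a signal of 27.4 (rank 13634), lay past the end of mab-5 but 117 bp upstream of the neighbouring gene bath-15. It was listed in replicate 2 alone, at 19.4 (rank 7991). Further regions of single libraries were in introns and upstream. Replicate 1 had one at chrIII:7782080-7782495 with 13.5 (rank 18762) and one at chrIII:7784324-7784739 with 16.3 (rank 11431). Replicate 2 had one at chrIII:7778849-7779278 with 14.7 (rank 16721). Of these 3, the middle one overlapped the strongest pooled region and the others overlapped none.

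The highest signals at a Hox gene were upstream of egl-5, which lies on the plus strand at chrIII:7814374-7817141. Overlapping regions stood there, at chrIII:7812283-7812706 and chrIII:7812491-7812914, with summits 1879 and 1671 bp upstream of the 5′ end. Their pooled signals were 54.8 (rank 1629) and 36.4 (rank 5983). Replicate 1 listed both, with 24.8 (rank 2850) for the first and 32.8 (rank 1068) for the second. Replicate 2 listed 1 region there, at chrIII:7812209-7812638, with a signal of 34.4 (rank 1161). The leading summit was thus 1665 bp upstream in replicate 1 and 1950 bp upstream in replicate 2, and in each library this place ranked higher than any other Hox region. A region at the 5′ end itself, at chrIII:7814130-7814553 with its summit 32 bp upstream, had a signal of 37.9 (rank 5176), and 18.6 and 16.8 in the libraries. An intronic region at chrIII:7815423-7815846, 1255 bp downstream of the nearest 5′ end, had 25.1 (rank 16831) and was listed in replicate 1 alone, at 13.2. The weakest, at chrIII:7809980-7810403 and 4182 bp upstream, had 21.5 (rank 23732) and was in neither library list. With 5 regions in 8768 bp, egl-5 had the densest window of the pooled list, 0.570 regions per kb. The 5 include the overlapping pair and the region in neither library list. In replicate 2 the egl-5 window held 2 regions, fewer than those of ceh-13 (3), mab-5 (4), php-3 (4) and nob-1 (5).

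**Figure D1:**
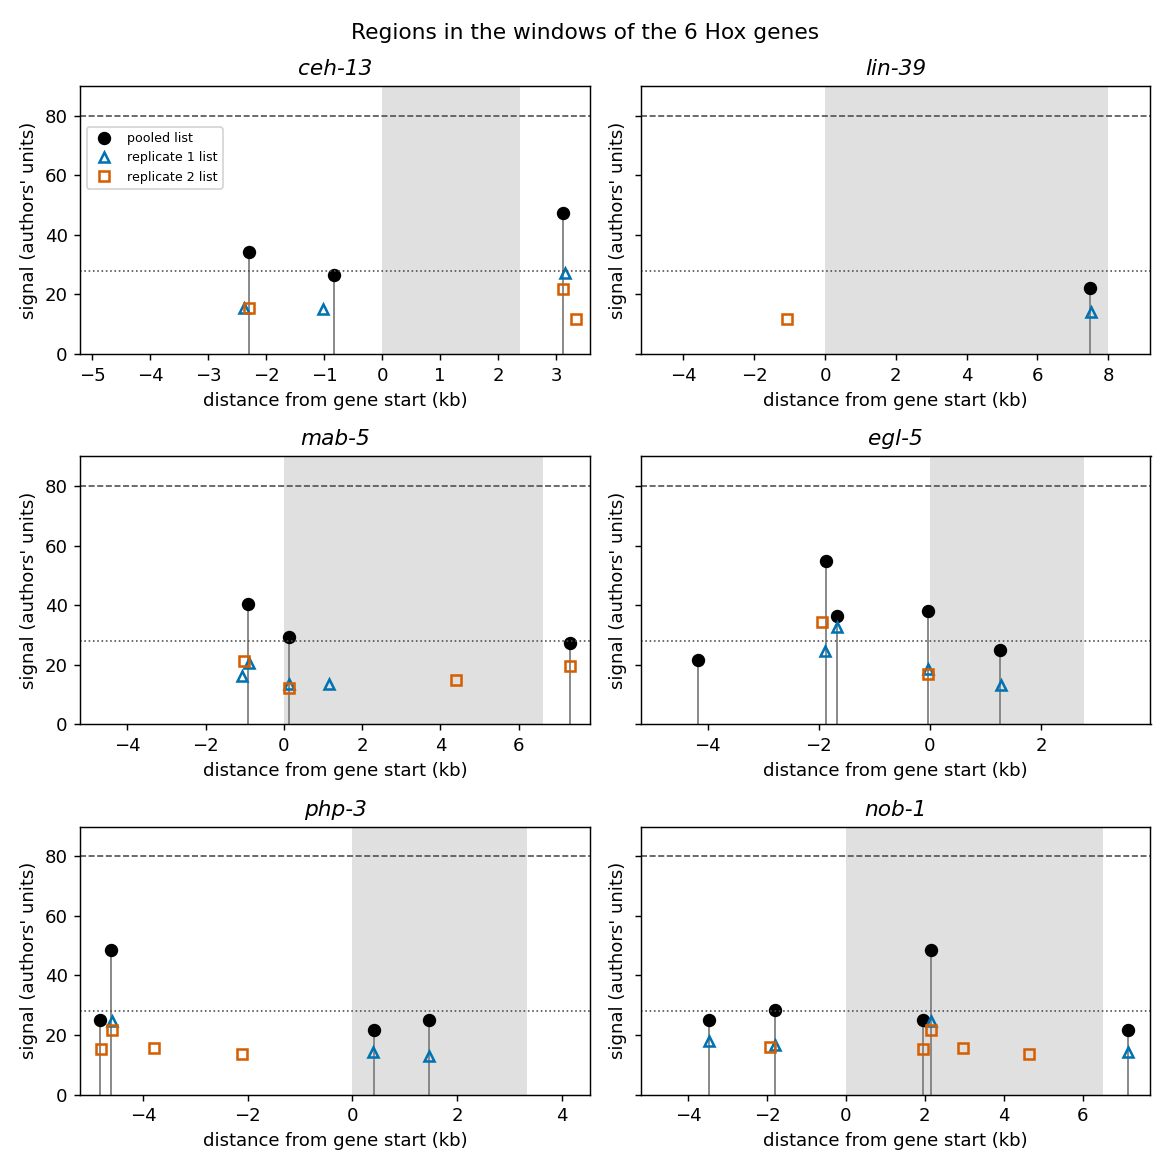
Signal of every region in the windows of the 6 Hox genes, by distance of its summit from the gene start in kb in the direction of transcription. Filled circles with stems are the pooled list, open triangles replicate 1 and open squares replicate 2, the grey block is the gene, the dashed line is the lowest reproducible signal (80.0) and the dotted line the pooled median (27.9). All points lie under the dashed line, the highest at 54.8 upstream of egl-5, and lin-39 has 1 pooled region.

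The paralogs php-3, at chrIII:12074218-12077556, and nob-1, at chrIII:12077793-12084316, have overlapping windows and shared 3 of the pooled regions. The strongest, at chrIII:12081949-12082372, was in an intron of nob-1, 2101 bp downstream of its nearest 5′ end and 4605 bp upstream of php-3. Its pooled signal was 48.7 (rank 2294), with 24.8 (rank 2814) in replicate 1 and 21.8 (rank 5460) in replicate 2. It was the only region of this pair above the pooled signal of 40 and it was listed in both libraries. An overlapping region at chrIII:12082160-12082583 had 25.2 (rank 16622) and was paired with a region of replicate 2 alone, at 15.5. The replicate 1 region of 24.8 also overlaps it, but was paired with the strongest region. The third shared region, at chrIII:12076941-12077364, lay in a php-3 intron 403 bp downstream of its 5′ end, with 21.8 (rank 22915), and was listed in replicate 1 alone, at 14.2. In an intron of php-3 there was also a region at chrIII:12075885-12076308 with 25.1 (rank 16804), listed in replicate 1 alone at 13.0. Its summit window was the one of the 18 that was not wholly unique, with 56.7% of its 31-mers occurring once in the genome.

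Upstream of nob-1, a region at chrIII:12085896-12086319, 1792 bp from the nearest 5′ end, had a signal of 28.4 (rank 12429), with 16.8 and 15.9 in the libraries. Another at chrIII:12087585-12088008, 3481 bp upstream, had 25.1 (rank 16723) and was listed in replicate 1 alone, at 18.002. Replicate 2 had regions at chrIII:12079461-12079890 with 13.8 (rank 19526) and chrIII:12081139-12081568 with 15.6 (rank 14634), both in introns of nob-1 and both overlapping no pooled region. The summit of the first lay 241 bp upstream of an annotated nob-1 5′ end. Signal in this pair was thus led by 1 intronic region, and the other 5 pooled regions had 28.4 or less.

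Ordered by their strongest pooled region, the genes ran egl-5 (54.8), php-3 and nob-1 (48.7, the same region), ceh-13 (47.3), mab-5 (40.3) and lin-39 (22.2). In the libraries these regions had 24.8 and 34.4 at egl-5, 24.8 and 21.8 at php-3 and nob-1, 27.2 and 21.7 at ceh-13, and 20.7 and 21.3 at mab-5. The 24.8 at egl-5 is the replicate 1 region that overlaps the pooled one most, and the overlapping replicate 1 region beside it had 32.8. By the highest signal of each library in the window, egl-5 had 32.8 and 34.4, above both library values of every other Hox gene. With the region of largest overlap, its range reached down to that of the php-3 and nob-1 region. The ranges of the php-3 and nob-1 region and of ceh-13 overlapped, so these neighbours were not separated. The range of ceh-13 lay above that of mab-5 by less than 1 unit of signal. The lin-39 region had 14.01 in replicate 1 and none in replicate 2, below all the others. With 2 libraries this order has no test.

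Among all protein-coding windows the Hox genes were spread over a wide part of the range, as the curve of window signals shows. By strongest pooled signal, 85.0% of the windows were lower than egl-5, 80.9% lower than php-3 and nob-1, 79.4% lower than ceh-13, 69.4% lower than mab-5 and 23.4% lower than lin-39. The median window had a highest signal of 31.5, and 19.3% of windows held no pooled region. Windows of long genes are longer and can hold more regions. The median window was 8027 bp, and the Hox windows were 8382 bp at ceh-13 to 13992 bp at lin-39. Per kb of window, 90.7% of genes had fewer pooled regions than egl-5, 79.4% fewer than php-3, 75.6% fewer than nob-1, 70.1% fewer than ceh-13, 49.0% fewer than mab-5 and 19.6% fewer than lin-39. On both measures in the pooled list egl-5 was the highest Hox gene and lin-39 the lowest. In replicate 2 egl-5 had 2 regions, fewer than every Hox gene but lin-39 (1). These shares are over windows of all chromosomes. Chromosome III, where the Hox genes lie, held 0.312 pooled regions per kb beside 0.258 over all chromosomes.

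**Figure D2:**
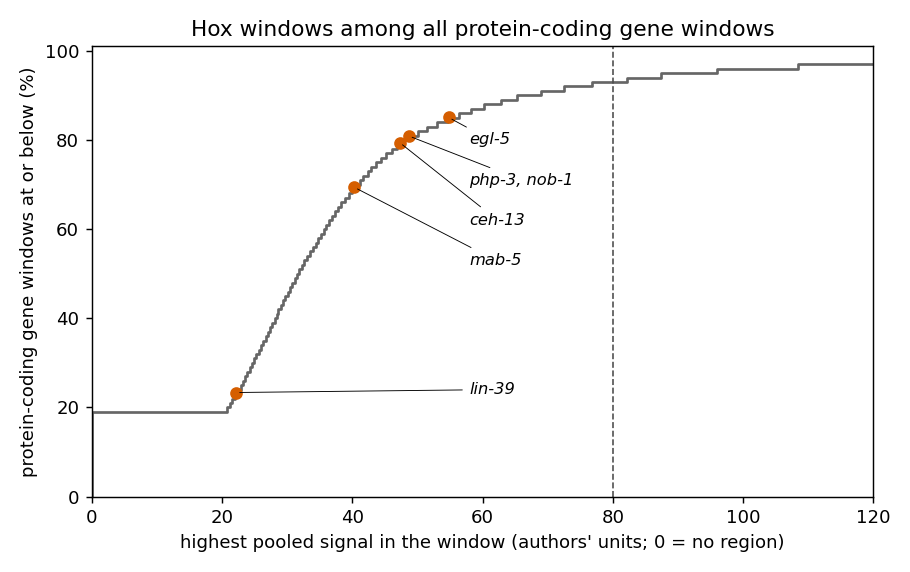
Share of all 19973 protein-coding gene windows, in percent, whose highest pooled signal is at or below the value on the x axis (authors' units). Points are the Hox genes and the dashed line is the lowest reproducible signal, 80.0. All but lin-39 sit between 40.3 and 54.8 on the upper part of the curve, while lin-39 sits at 22.2, near windows with no region.

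Each library alone gave a like placing for egl-5, with 89.4% of windows lower in replicate 1 and 88.8% in replicate 2. For ceh-13 the shares were 82.5% and 63.8%, and for php-3 and nob-1 77.7% and 64.1%. For mab-5 they were 63.7% and 62.4%, and for lin-39 28.1% and 16.8%. All 6 genes thus stood lower in replicate 2 than in replicate 1, egl-5 and mab-5 by the least.

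Of the 18 pooled regions, 8 had a region of their own in both library lists, 9 in 1 list and 1 in neither. The 8 were 44.4% of the Hox regions, compared with 37.1% of the whole pooled list and 97.0% of the reproducible peaks. Compared directly, 8 of the 17 replicate 1 regions matched a replicate 2 region, or 47.1% (exact Clopper-Pearson 95% interval 22.98 to 72.2%, counting error only), beside 48.8% of the whole list. From replicate 2, 8 of 15 matched, or 53.3% (26.6 to 78.7%), beside 38.6%. Both shares over all regions lie inside the Hox intervals. For the 8 pooled regions in both lists, the log2 ratio of replicate 1 over replicate 2 averaged 0.04 ± 0.24 (SD over 8 regions), against 0.01 ± 0.52 over 9597 such regions. It ran from −0.48 at the strongest egl-5 region to 0.33 at the strongest ceh-13 region. The −0.48 depends on the pairing, which took the replicate 1 region of largest overlap with the pooled one. With regions paired library to library by rank, a choice made after seeing the data, replicate 2's egl-5 region met the replicate 1 region of 32.8, a log2 ratio of −0.07. The 8 ratios then averaged 0.09 ± 0.13 (SD over 8 regions) and ran from −0.07 to 0.33. Signals of the 8 ranked alike in both libraries, with a Spearman coefficient of 0.905 across regions, beside 0.384 over the 9597, for pairs made through the pooled list. That is a description of points that share the same 2 libraries, and the 8 were not compared with regions of like signal.

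**Figure D3:**
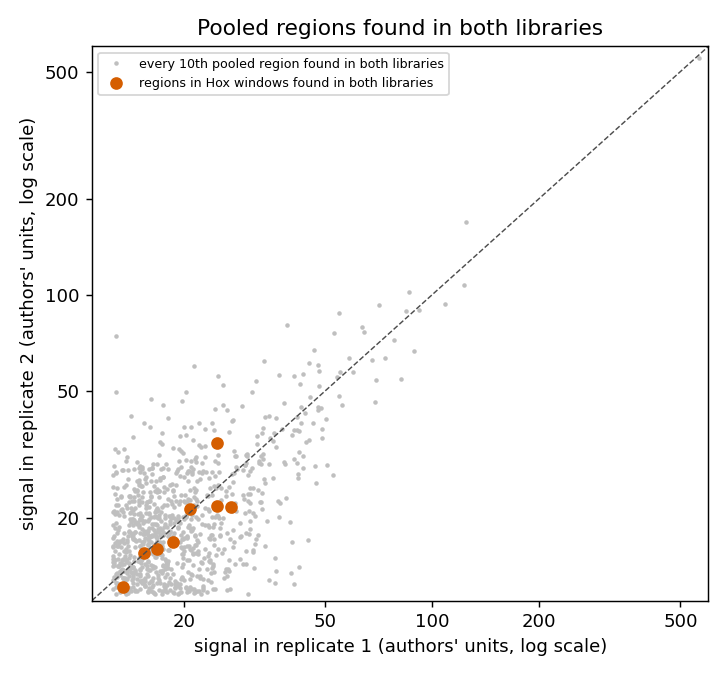
Signal in replicate 1 (x axis) and replicate 2 (y axis), both in the authors' units on log scales, for pooled regions found in both libraries. Grey dots are every 10th such region and orange circles the 8 in Hox windows; the dashed line marks equal signal. Each pooled region is shown with the library regions of largest overlap. The Hox regions lie near the line, with 1 region at 24.8 and 34.4, that of egl-5, farthest above it.

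The 18 regions lay mostly outside exons. Summits were intergenic in 11, in introns in 5, in coding exons in 2 and in a UTR in 0. None had a noncoding RNA gene within 250 bp. Shares by location over the whole pooled list are not given here, so these counts describe the 18 regions alone. Within the promoter window, from 1000 bp upstream to 500 bp downstream of an annotated 5′ end, ceh-13, mab-5, egl-5 and php-3 had a pooled summit, 4 of the 6 genes beside 41.0% of all protein-coding genes. None of the 6 had a reproducible summit there, beside 2.61% of all genes. At nob-1, replicate 2 alone had a relaxed summit there, 241 bp upstream of a 5′ end. The 3 regions of highest signal, at egl-5, nob-1 and ceh-13, had their summits outside these windows.

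Sequence within 100 bp of the summits was compared with that of the whole pooled list. The TAAT core, searched on both strands, was in 17 of the 18 windows, 94.4%, beside 73.9% of all pooled regions, with a median of 2.5 matches a window beside 1. The one window without it was the overlapping region in the nob-1 intron of signal 25.2. TAATTA, which contains the TAAT core on both strands, was in 2 windows, 11.1% beside 7.58%, those of the strongest mab-5 region and of the egl-5 intron. Without replicate 1, in the replicate 2 list alone, it was in 3 of 15 regions, beside 7.27% of that list. TGATNNAT, the form of site bound by Hox proteins with a PBC partner, was also in 2, 11.1% beside 11.5%, at the ceh-13 region 830 bp upstream and in the php-3 intron. GAGAGA was in 7, 38.9% beside 17.6%, and among them were the strongest regions of ceh-13, mab-5 and egl-5. Over the 570 reproducible peaks the shares were 63.5% for TAAT, 8.25% for TAATTA, 5.61% for TGATNNAT and 34.6% for GAGAGA. The share with TAAT was thus lower among the reproducible peaks than in the whole pooled list. GC content had a median of 40.05% beside 41.3% and ran from 29.9% at the region near bath-15 to 54.2% at the strongest egl-5 region. Fully unique 31-mers filled 17 of the 18 windows, 94.4% beside 83.8%. These shares rest on 18 regions, some of which overlap, and carry no test.

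Genes that act with or on Hox genes were read in the same windows. The cofactors are homeodomain proteins of the PBC class (ceh-20, ceh-40, ceh-60) and the Meis class (unc-62) that bind DNA together with Hox proteins. None of the 4 had a reproducible peak, which is near the 6.38% of all windows. The highest signals were 44.0 at unc-62 (rank 3141, with 21.3 and 25.3 in the libraries) and 40.9 at ceh-20 (rank 4036, with 18.8 and 23.4). At ceh-40 there was 1 region of 22.7 (rank 21183), nearer to another gene, and at ceh-60 none, which left the list a median of 31.8. Both of the leading values fall between those of mab-5 and ceh-13.

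Regulators of Hox expression included 2 of 13 genes with a reproducible peak, sor-3 and egl-27, which is 15.4% beside the 6.38% of all windows. The sor-3 gene, whose product keeps Hox genes silent outside their domains, had a peak of 105.3 (rank 267), 259 bp upstream of its 5′ end. Its library signals were 53.8 and 55.4. At egl-27, related to a subunit of a chromatin-remodelling complex, the highest signal was 85.4 (rank 467), 671 bp downstream of a 5′ end. The library regions paired with it differed, with 49.0 in replicate 1 and 22.1 in replicate 2. Next came pop-1, the TCF factor of Wnt signalling, with 63.8 (rank 1055), and sor-1, which also keeps Hox genes silent, with 57.0 (rank 1464). For pop-1 the paired library regions had 28.9 and 38.1, and for sor-1 39.8 and 15.5. These are the regions of largest overlap. Other library regions in the windows of egl-27 and sor-1 were not compared. The median highest signal of the regulators was 42.6, and that of the Hox genes 48.0, with the region shared by php-3 and nob-1 counted for each.

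Targets of Hox proteins had no reproducible peak at any of 7 genes, which is near the 6.38% of all windows. The highest signal was 62.6 at egl-18 (rank 1103), which encodes a GATA factor of the epidermis. It was paired with a region of 25.0 in replicate 1 and with none in replicate 2. Whether a replicate 2 region paired elsewhere overlaps it was not examined. The window of the adjacent GATA gene elt-6 held a region of 46.2 (rank 2699), with 26.0 and 14.3, which lay 4735 bp upstream of elt-6 and nearer to a 5′ end of egl-18. At hlh-8, which encodes the mesodermal Twist ortholog, the signal was 36.8 (rank 5751), with 15.9 and 19.9. At egl-1, the cell death activator, it was 30.8 (rank 9916), paired with a region of replicate 2 alone at 22.96. The median of this list, 30.8, was close to the 31.5 of all windows.

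Among other homeobox genes, 3 of 58 genes named ceh had a reproducible peak in the window, 5.17% beside 6.38% of all windows, with a median highest signal of 31.1. The highest were 133.7 at ceh-5 (rank 146), where the peak is nearer to eat-16, 112.0 at ceh-62 (rank 230), 84.4 at ceh-39 (rank 488), nearer to T26C11.8, and 74.4 at ceh-24 (rank 688), nearer to swan-1. Of 7 LIM homeodomain genes, 1 had a reproducible peak, lim-6 itself, the gene of the tagged protein, at 126.7 (rank 165, with 67.9 and 62.4). Whether sequence of the LIM-6 transgene, whose copy number is not given, adds to that signal was not tested. Next among the LIM genes were ceh-14 at 44.8 (rank 2977), lim-7 at 41.9 (rank 3689) and lim-4 at 32.6 (rank 8363), and the median was 32.6. The Hox median of 48.0 is thus above both. A region shared by neighbouring genes counts for each of them in these medians, as does that of php-3 and nob-1. The Hox windows, with a median of 10932 bp, were longer than those of the other homeobox genes, at 8728 bp, and about as long as those of the LIM genes, at 10964 bp. The part of window length in these medians was not tested, and no difference between the lists was tested.

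**Figure D4:**
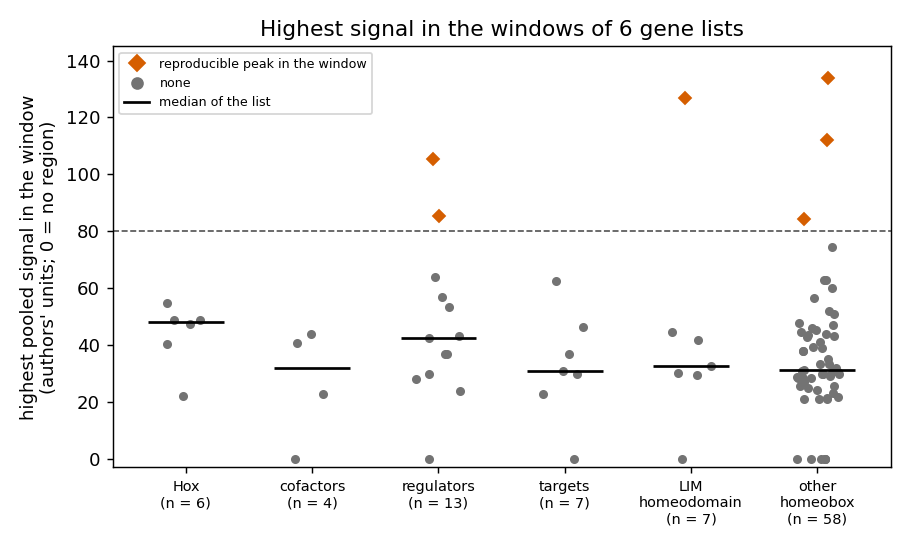
Highest pooled signal (authors' units, 0 where the window holds no region) in the window of each gene of 6 lists, 1 point a gene, spread sideways for legibility. Diamonds are genes with a reproducible peak in the window, circles genes with none, horizontal bars list medians, and the dashed line the lowest reproducible signal, 80.0. The 6 Hox genes lie between 22.2 and 54.8, under the line, while diamonds stand among regulators (2), LIM homeodomain genes (1) and other homeobox genes (3).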

How the data were processed

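ChIP-seq of tagged LIM-6 was deposited as lists of regions. The ce11 lists were used. Per the deposited notes, a relaxed list of peaks and background was made from each library, and from both pooled, together with a control file, and those lists gave the peaks past the authors' IDR (irreproducible discovery rate) threshold. The signal and the −log10 q-value of each region are as deposited by the authors, read from the narrowPeak layout. For the aligner, peak caller, versions and read depth, nothing is given in the sources used here. The ce10 lists were not used.

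Gene models were from Ensembl release 115 on WBcel235. Windows ran from 5000 bp upstream of a gene to 1000 bp past its end, and a region counted at an overlap of 1 bp. Pooled regions were paired with library regions one-to-one, largest overlap first, and library lists with each other by best summed rank. A pooled region paired in 1 library alone could still overlap a region of the other library that was paired elsewhere. Motifs were searched within 100 bp of summits on both strands. All names in the gene lists matched a gene symbol. Named genes were the 6 Hox genes and up to 4 genes of highest signal of each list. Members and lists were chosen with earlier results of these data known. No test was run, since 1 group of 2 libraries allows none. Counting and matching were tested on simulated data. Alternatives changed the window, overlap, threshold, measure, motif distance, background and library. Python 3.11.15, numpy 2.4.6, pandas 2.3.3, scipy 1.17.1 and matplotlib 3.10.9 were used.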

Additional observations from a re-analysis of the deposited data

How the results depend on the processing

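The number of pooled regions in Hox windows was 18 and became 8 with the gene body only, 9 at or above the list median, 4 among the 5000 highest regions, and 15 to 17 with 1 library left out. The count of reproducible peaks was 0 under each other window and overlap run and among the 1000 highest pooled regions, and was 1, the egl-5 region, among the 2000 highest pooled regions, which 17.4% of all windows held. A reproducible list needs both libraries, so with 1 left out the 570 highest regions of the other were counted in its place, and 0 lay in a Hox window. Medians over the 6 genes count the region shared by php-3 and nob-1 for each of them. Over the 6 genes, the strongest region stood at or above a median of 90.7% of the list, 45.5% with the gene body only and 80.2 to 87.2% with 1 library left out. Of the 36 values for single genes under these alternatives, 13 moved by more than the spread between libraries, and the share ran from 1.93% (without replicate 1) to 83.5% (10 kb upstream) for lin-39. It was 0 for ceh-13 with the gene body only, which holds no region, and 35.1% for php-3 with the gene body or 2 kb upstream, which leave out the nob-1 intron region, beside 90.3% and 91.1% in the full window. The share of replicate 1 regions matched was 75.0% (6 of 8) for signals at or above the list median. The share over all replicate 1 regions at that threshold is not given here. The 48.8% of the whole list is without that threshold and is not its background. The median share of windows lower than a Hox gene, 80.2%, was 68.3% with the gene body only, 66.9% by number of regions and 64.0 to 77.7% with 1 library left out. Cofactors, regulators and targets with a reproducible peak numbered 2, from lists of 4, 13 and 7 genes, beside 6.38% of all windows. In the promoter window there was 1 (sor-3), beside 2.61% of all genes. By the 570 highest regions of 1 library there were 1 to 2. The excess of TAATTA over background, 3.54 percentage points (2 of 18 regions, 11.1%, exact Clopper-Pearson 95% interval 1.38 to 34.7%), was 12.7 without replicate 1 (3 of 15), 3.67 without replicate 2, 12.1 over the whole region and 1.75 within 50 bp, so its size is not fixed by these counts. The cause of these changes was not tested. No paired analysis was possible because both libraries belong to 1 group. What read depth limits is unknown, as the lists give no depth.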

Other observations

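Beyond the windows, the space between the divergent genes also held relaxed regions, chosen for description after the window values were seen. Between lin-39 and ceh-13, where no other protein-coding gene lies, 4 pooled summits were found in 19027 bp, 0.210 per kb beside 0.312 per kb on chromosome III. The highest of these, at chrIII:7544097-7544520, had a signal of 40.2 (rank 4275), with 22.6 and 16.9 in the libraries. It lies 7677 bp from lin-39 and 11351 bp from ceh-13, so it is outside both windows and stronger than any region inside the lin-39 window. A neighbour at chrIII:7544889-7545312 had 23.8 (rank 19012) and was paired with a region of replicate 2 alone. Between mab-5 and egl-5, which enclose cyk-7, 8 pooled summits were found in 30919 bp, 0.259 per kb. The 3 of these outside the Hox windows had 28.3, 23.2 and 22.9, all nearest to cyk-7. No reproducible peak lay in either space.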
